A study of Mus musculus with 6 samples.

Results

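Acetylcholine in the striatum is made, packed, broken down and sensed through a small set of genes, and 9 of them were examined here among the 24841 genes listed: Chat, Slc5a7, Slc18a3 and Slc10a4 of the cholinergic terminal, Ache of the synaptic cleft, and the muscarinic receptor genes Chrm1, Chrm2, Chrm3 and Chrm4. The members were chosen by name, with no measured value in the rule but with earlier results of these data known. All 9 were present in the table. They were followed through single-nucleus RNA sequencing of frozen, dissected mouse striatum, with 3 libraries labelled wild type and 3 labelled Celsr3 heterozygous, numbered as biological replicates 1 to 3 in each group. Celsr3 encodes an atypical cadherin of the cell surface, and no other allele or treatment is named for either group. The libraries were made with 10x 3′ chemistry from nuclei of flash-frozen tissue. The labels state neither sex, age, strain nor the kind of allele, and nothing beyond the words biological replicate says that each library came from a separate animal, so p-values measure the spread between these libraries.

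Choline acetyltransferase (Chat) joins choline to acetyl-CoA, the high-affinity choline transporter (Slc5a7) brings choline back into the terminal, and the vesicular acetylcholine transporter (Slc18a3) loads synaptic vesicles. Slc10a4 encodes a vesicular protein of cholinergic and monoaminergic neurons, and acetylcholinesterase (Ache) ends the signal. In the striatum the transmitter comes mainly from sparse, large cholinergic interneurons. The M1 and M3 receptors (Chrm1, Chrm3) couple to Gq and phospholipase C, the M2 and M4 receptors (Chrm2, Chrm4) to Gi/o, and M4 is known as a receptor of direct-pathway medium spiny neurons (MSNs), whereas M2 is known as an autoreceptor of cholinergic cells.

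Of 48834 nuclei, 48022 were kept, between 7617 and 8709 per library, with a median of 2434 to 3001.5 genes per nucleus by library. The deposited values are whole numbers whose totals vary little between nuclei and are treated here as depth-corrected, and a level below is the mean value per nucleus, averaged over libraries, ± SD over libraries. Since the original depth of a nucleus is unknown, no counting interval is given and shares of nuclei were not thinned to a common depth. Clusters were found without the 9 members and named from marker genes that hold none of them, which gave 17 classes and 11 unnamed clusters with 7622 nuclei. Against the striatal label, D1 MSN-like nuclei (17.7% of those kept) held Drd1, Tac1 and Pdyn, D2 MSN-like nuclei (14.8%) held Drd2, Adora2a and Penk, and 8.25% of nuclei were glutamatergic neuron-like, between 2.58% and 19.5% by library. Celsr3 stood at 0.0746, 0.0999 and 0.108 in wild-type replicates 1, 2 and 3 and at 0.0614, 0.0693 and 0.0644 in the heterozygous ones, so that every heterozygous library was below every wild-type one. The libraries share some cell barcodes, 273 of them between 2 libraries and 1 among 3, but no cholinergic interneuron-like nucleus has a shared one.

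The promoters of the 4 terminal genes are shown first, because these genes reached their highest level in the same class of nuclei. The sequences are the 250 bases before the start site in RefSeq on GRCm38.p6, 5′ to 3′ on the gene's strand. Capitals mark CACGTG, which is in the window of Chat.

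Chat, chr14:32465910-32466159, minus strand: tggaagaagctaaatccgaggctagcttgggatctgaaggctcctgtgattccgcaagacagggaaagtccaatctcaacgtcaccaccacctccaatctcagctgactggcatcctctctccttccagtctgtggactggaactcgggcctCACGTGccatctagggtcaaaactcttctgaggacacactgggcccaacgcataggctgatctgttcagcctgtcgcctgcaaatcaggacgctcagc
Slc18a3, chr14:32464851-32465100, minus strand: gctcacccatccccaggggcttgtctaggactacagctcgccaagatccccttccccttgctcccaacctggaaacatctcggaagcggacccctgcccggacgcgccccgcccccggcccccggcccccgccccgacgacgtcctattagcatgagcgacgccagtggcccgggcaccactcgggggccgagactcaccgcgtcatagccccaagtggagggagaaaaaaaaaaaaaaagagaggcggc
Slc5a7, chr17:54299035-54299284, minus strand: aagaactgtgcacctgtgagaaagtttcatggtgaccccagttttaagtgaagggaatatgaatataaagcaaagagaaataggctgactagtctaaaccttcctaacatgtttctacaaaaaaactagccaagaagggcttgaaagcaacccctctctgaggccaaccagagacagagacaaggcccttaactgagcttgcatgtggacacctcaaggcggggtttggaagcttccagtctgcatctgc
Slc10a4, chr5:73006654-73006903, plus strand: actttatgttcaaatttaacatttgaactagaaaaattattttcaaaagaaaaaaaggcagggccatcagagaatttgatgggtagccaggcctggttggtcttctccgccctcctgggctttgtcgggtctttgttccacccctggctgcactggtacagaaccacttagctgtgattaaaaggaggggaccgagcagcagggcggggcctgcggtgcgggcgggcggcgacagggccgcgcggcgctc

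In the annotation (GENCODE vM21, GRCm38), Slc18a3 is a single exon at chr14:32462438-32464850 within an intron of Chat (chr14:32408203-32465989), on the same strand, the arrangement known as the cholinergic gene locus. Their RefSeq starts lie 1059 bases apart, yet the windows differ in base composition: 66% G or C and 21 CpG pairs for Slc18a3, against 54.8% and 8 for Chat. The window of Slc5a7 (gene at chr17:54273590-54299034) has 45.6% G or C and 1 CpG pair, that of Slc10a4 (chr5:73006883-73012955) 54.4% and 13. Over all 32851 promoters of that length in the RefSeq table the medians are 52.4% and 6. Searched on both strands, CACGTG (an E-box) was found in the windows of Chat and Ache and in 6.02% of all promoters. The 3 motifs searched do not overlap in these windows, and each reads the same on both strands. TAATTA, a core bound by LIM homeodomain factors such as Lhx8 and Isl1, was found in no member's window and in 4.84% of all, and TGACGTCA, the cAMP response element, in no member's window and in 1.55% of all. Promoter entries were matched for 8 of the 9 members.

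Cholinergic interneuron-like nuclei held the highest level of all 4 terminal genes. The class is 1 cluster of 192 nuclei, named from markers that include Lhx8, Slc17a8, Ecel1, Isl1, Zic4 and Tacr1, and it made up 0.389% ± 0.0993 of wild-type and 0.408% ± 0.0567 of heterozygous nuclei (SD, n = 3; exact two-sided permutation test p = 0.9, where 0.1 is the smallest this design allows). Of 8 D2 MSN markers, 4 were above 0.1 in it and Gpr52 was at 0, with a summed level of 4.83 to 5.72 in wild-type and 4.87 to 6.19 in heterozygous libraries, against 15.7 in D2 MSN-like nuclei. Of 8 D1 MSN markers, 4 were above 0.1, with a summed level of 1.96 to 2.92 and 2.05 to 2.37, against 11.2 in D1 MSN-like nuclei. That list shares Isl1 with the cholinergic list, and Isl1 averaged 1.53 in the cholinergic class. Of 13 GABAergic interneuron markers, 8 were above 0.1, with a summed level of 22.2 to 25.6 in wild-type and 19.6 to 24.9 in heterozygous libraries, against 27.7 in the GABAergic class. Of 9 glutamatergic markers, 3 were above 0.1, with a summed level of 11.96 to 16.1 and 13.9 to 14.9, against 17.1 in the glutamatergic class. Of 8 eccentric MSN markers, 5 were above 0.1, with a summed level of 11.4, 4 and 4.25 in wild-type and 2.41, 7.18 and 5.14 in heterozygous replicates 1 to 3, against 23.3 in eccentric MSN-like nuclei. The neuroblast, glial, vascular, macrophage, ependymal and choroid plexus lists reached at most 5.58 in any library. The part of other cell types in the levels was not tested.

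Chat averaged 5.36 ± 0.646 there (n = 6 libraries) and was found at a value of 1 or more in 98.4% of the nuclei. The choline transporter Slc5a7 averaged 8.18 ± 1.18 and was found in 99.5%. Slc10a4 averaged 1.20 ± 0.162, in 66.1%, and Slc18a3 0.620 ± 0.0621, in 43.8%. Each was above every other class in all 6 libraries. In oligodendrocyte-like nuclei, which should lack all 4, Chat was found in 0.361%, Slc5a7 in 0.831%, Slc10a4 in 0.580% and Slc18a3 in 0.220%, with a median of 1835 genes per nucleus against 3814.

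**Figure D1:**
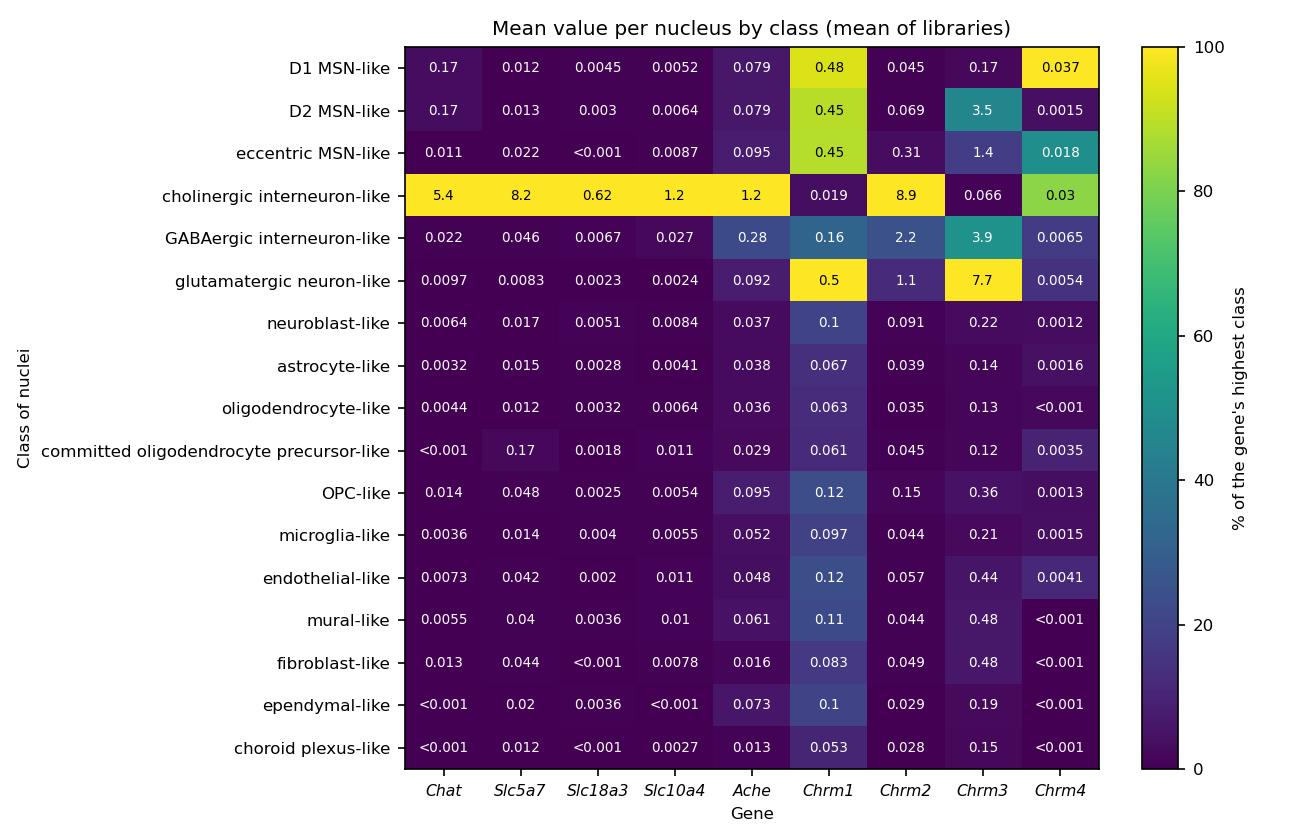
Mean value per nucleus of the 9 genes in 17 classes of nuclei. Each cell prints the mean of the libraries, and colour gives it as a percentage of that gene's highest class, so colours compare classes within a gene and not genes with each other. Chat, Slc5a7, Slc18a3, Slc10a4, Ache and Chrm2 are highest in the cholinergic interneuron-like row, Chrm1 and Chrm3 in the glutamatergic neuron-like row and Chrm4 in the D1 MSN-like row.

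Counting nuclei with a value of 1 or more, 62 of the 192 cholinergic interneuron-like nuclei held all 4 terminal genes, 86 held 3 and none held 0. Chat and Slc5a7 were found together in 188. Over all classes 168 nuclei held at least 3 of the 4, of which 148 were cholinergic interneuron-like and 20 lay elsewhere. Of those 20, 14 lay in cluster 12, an unnamed cluster of 1210 nuclei led by Pmch and Atp1b1 with a median of 1722 genes per nucleus. These 14 nuclei averaged 13.7 for Slc5a7, 3.43 for Slc18a3, 2.71 for Slc10a4 and 0.714 for Chat. The other 1196 nuclei of that cluster averaged 0.0920 for Slc5a7, 0.0125 for Slc18a3 and 0.0301 for Slc10a4. The 14 were picked by these same genes, so the gap between them and the rest is set by that choice.

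Chat was not confined to the cholinergic class. In D1 MSN-like nuclei it averaged 0.170 ± 0.0587 and was found in 13.7%, and in D2 MSN-like nuclei 0.170 ± 0.0408 and 13.5%, and every library of both was above every library of the next class. GABAergic interneuron-like nuclei, the next class, stood at 0.0218, glutamatergic neuron-like nuclei at 0.00972 and 0.606% of nuclei. The median in the glutamatergic class was 3575 genes per nucleus, against 3389 and 3266 in the D1 and D2 classes, and the part of depth in these levels was not tested. Because MSN-like nuclei are many, they held 36.4% (D1) and 31.0% (D2) of the summed Chat value, and the cholinergic class 26.4%. In 82.5% of the 1162 D1 nuclei with Chat the value was 1, and the median was 1, against 5 in the cholinergic class.

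The other terminal genes did not share this pattern in MSN-like nuclei. Slc5a7 averaged 0.0121 in D1 and 0.0134 in D2 nuclei, beside 0.0119 in oligodendrocyte-like nuclei. Slc18a3 averaged 0.00449 and 0.00296, beside 0.00317. Chat was found without the other 3 in 1132 of 1162 D1 and 939 of 962 D2 nuclei with Chat.

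Within each MSN class, Chat varied between clusters. In cluster 0, the largest D1 cluster, it stood at 0.342, 0.171 and 0.152 in wild-type replicates 1 to 3 and at 0.256, 0.234 and 0.154 in the heterozygous ones. In cluster 7, a D1 cluster led by Drd3, Dlk1 and Pdyn, it stood between 0.0554 and 0.172. In cluster 13, a D1 cluster led by Impg1 and Cd55b, it stood between 0.0396 and 0.0714. Cluster 0 was higher than cluster 7 in 6 of 6 libraries, by 1.87- to 4.22-fold, and higher than cluster 13 by 2.61- to 4.78-fold. Among D2 clusters, cluster 2, led by Drd2, Oprd1 and Adora2a, exceeded cluster 9 by 2.33- to 6.11-fold and cluster 21, led by Calcr and Syt10, by 4.23- to 16.3-fold, again in all 6 libraries. These are descriptions of clusters and carry no test, and clusters 9 and 13 share 5 of their 10 leading genes.

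**Figure D2:**
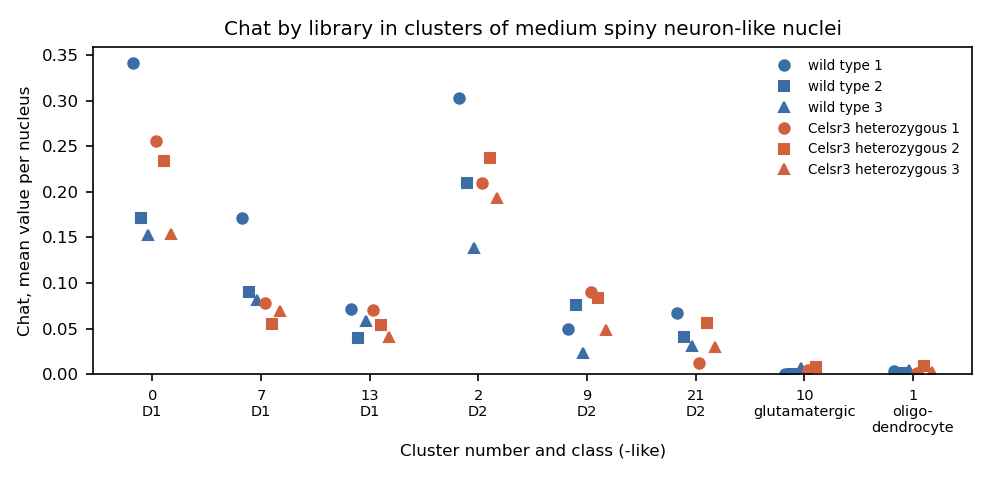
Chat by library in the 3 D1 MSN-like clusters, the 3 D2 MSN-like clusters and, for comparison, 1 glutamatergic neuron-like and 1 oligodendrocyte-like cluster. The y axis is the mean value per nucleus, blue marks wild type, orange marks Celsr3 heterozygous, and shape gives the replicate number. Within each library cluster 0 lies above clusters 7 and 13, and cluster 2 above clusters 9 and 21. Across libraries the points of clusters 0 and 7 overlap. Wild-type replicate 1 is the highest library in clusters 0 and 2.

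A transcript on the opposite strand, Gm2990 (chr14:32465042-32483548, plus strand), overlaps the start of Chat. It averaged 0.303 in cholinergic interneuron-like, 0.0252 in D1, 0.0233 in D2 and 0.000290 in glutamatergic neuron-like nuclei. Across the 17 classes its log2 level followed that of Chat most closely of the genes compared (Pearson r = 0.979, a description over classes of the same libraries). The genes compared were those with a mean of at least 0.1 in some class. Gm2990 was found in 206 of the 8488 D1 nuclei, and 91 of these 206 were among the 1162 D1 nuclei with Chat. In D2 it was found in 153 of 7110 nuclei, 83 of them among the 962 with Chat. Whether reads were counted by strand is not given in the sources used here, and without it reads of the 2 genes cannot be told apart where they overlap.

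For Slc5a7, the second highest class mean lay in a glial class. Committed oligodendrocyte precursor-like nuclei (392 nuclei, marked by Bcas1, Enpp6 and Gpr17) stood at 0.240, 0.0941 and 0.253 in wild-type and 0.107, 0.106 and 0.231 in heterozygous replicates 1 to 3. That is 0.172 ± 0.0764, found in 13.8% of nuclei, and all 6 libraries were above every library of the next class. Single libraries of the mural-like and fibroblast-like classes, which hold few nuclei, reached above the lowest of them. OPC-like nuclei averaged 0.0475 ± 0.0235 (4.59% of nuclei) and mature oligodendrocyte-like nuclei 0.0119, so that the committed class was the highest of these 3. Chat was listed at 0 in all 392 committed precursor-like nuclei, Slc18a3 was found in 1 and Slc10a4 in 3.

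Ache averaged 1.24 ± 0.194 in cholinergic interneuron-like nuclei (75.5% of nuclei) and 0.277 ± 0.0479 in GABAergic interneuron-like nuclei (23.4%), and every library of the latter was above every library of the next class, eccentric MSN-like nuclei. Eccentric MSN-like, OPC-like, glutamatergic neuron-like, D2 and D1 MSN-like nuclei lay between 0.0954 and 0.0786 and overlapped each other. The 11 unnamed clusters together held 37.5% of the summed Ache value. Cluster 26, an unnamed cluster of 400 nuclei led by Lhx8 and Gbx1, averaged 0.535. The start of Ache (chr5:137287519-137294466) is overlapped on the other strand by Gm42456, which was highest elsewhere, at 0.489 in D1 MSN-like nuclei against 0.130 in cholinergic interneuron-like nuclei.

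The 4 receptor genes had different orders of classes. Chrm1 (chr19:8663789-8683587) was highest in 4 neuron classes: glutamatergic neuron-like nuclei averaged 0.503 ± 0.0610, D1 0.477 ± 0.0496, D2 0.449 ± 0.0426 and eccentric MSN-like nuclei 0.447 ± 0.0634, overlapping each other and lying above GABAergic interneuron-like nuclei at 0.161 ± 0.0404. Chrm1 was lower in D2 than in D1 nuclei in 6 of 6 libraries, but only by a D2 over D1 ratio of 0.904 to 0.976. Cholinergic interneuron-like nuclei averaged 0.0195, below the 0.0631 of oligodendrocyte-like nuclei, and 4 of 192 had a value.

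Chrm3 (chr13:9875486-10360847) separated D1 from D2 MSN-like nuclei, with eccentric MSN-like nuclei between them at 1.38 ± 0.335. It stood at 3.16, 4.57 and 3.82 in D2 MSN-like nuclei of wild-type replicates 1 to 3 and at 3.02, 3.09 and 3.33 in the heterozygous ones. In D1 MSN-like nuclei of the same libraries it stood at 0.164, 0.209 and 0.211 and at 0.156, 0.140 and 0.132. The classes did not overlap, and D2 exceeded D1 by 18.1- to 25.2-fold in 6 of 6 libraries, with 83.0% of D2 and 10.7% of D1 nuclei at 1 or more. The D1 mean was close to that of glia, 0.130 in oligodendrocyte-like and 0.138 in astrocyte-like nuclei. A value was found in 909 of 8488 D1, 458 of 6378 oligodendrocyte-like and 447 of 5414 astrocyte-like nuclei. Glutamatergic neuron-like nuclei were higher still, at 7.65 ± 0.916, with 15.1 in cluster 31, led by Nr4a2, and GABAergic interneuron-like nuclei stood at 3.89 ± 0.380. In cholinergic interneuron-like nuclei 6 of 192 had a value, and 1 nucleus held 10 of the summed 15.

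Chrm4 (chr2:91927249-91928688) had the opposite order of D1 and D2. It stood at 0.0276, 0.0342 and 0.0369 in D1 MSN-like nuclei of wild-type replicates 1 to 3 and at 0.0414, 0.0398 and 0.0395 in the heterozygous ones. In D2 MSN-like nuclei it averaged 0.00151 ± 0.000991 and was listed at 0 in heterozygous replicate 2. D1 exceeded D2 in 6 of 6 libraries, by 12.96- to 56.0-fold in the 5 where D2 was above 0, and D1 nuclei held 71.1% of the summed value. The values rest on 310 D1 and 10 D2 nuclei. Cholinergic interneuron-like nuclei ranked second at 0.0302 ± 0.0247, from 6 nuclei with a value, and overlapped D1: wild-type replicates 1 and 2 were listed at 0, while heterozygous replicates 2 and 3, at 0.0526 and 0.0556, exceeded every D1 library. In GENCODE vM21 the Chrm4 model is 1 exon of 1440 bases that ends at its stop codon, and a 3′ assay reads the ends of transcripts. The annotation behind these values is not given in the sources used here, and its part in the low level was not tested.

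**Figure D3:**
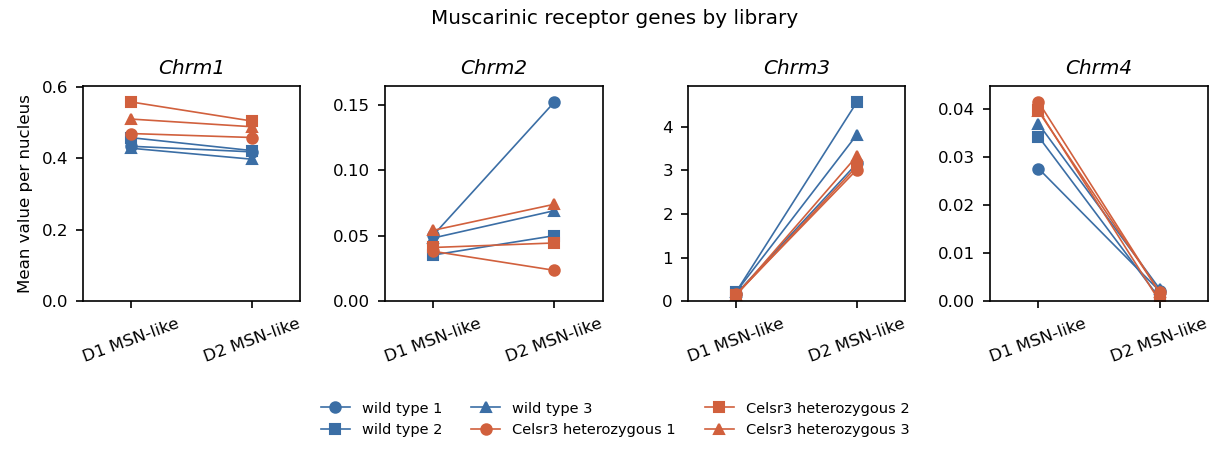
Chrm1 to Chrm4 in D1 and D2 MSN-like nuclei. Each line joins the 2 classes of 1 library, the y axis is the mean value per nucleus on a separate scale for each gene, blue marks wild type and orange Celsr3 heterozygous. All 6 lines rise for Chrm3 (18.1- to 25.2-fold), all 6 fall for Chrm4, Chrm1 differs little, and Chrm2 is near the glial level in both classes except for wild-type replicate 1 in D2.

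Chrm2 (chr6:36388084-36528414) was highest in interneuron-like classes. Cholinergic interneuron-like nuclei averaged 8.94 ± 1.96, with a value in 95.8% of nuclei, GABAergic interneuron-like nuclei 2.22 ± 0.576 and glutamatergic neuron-like nuclei 1.05 ± 0.222, each above the next class in all 6 libraries. Among GABAergic clusters, cluster 34, led by Nos1 and Chodl, stood highest at 5.14, between 4.41 and 5.83 by library. D1 and D2 MSN-like nuclei averaged 0.0446 and 0.0690, beside 0.0346 in oligodendrocyte-like nuclei. A value was found in 326 of 8488 D1, 363 of 7110 D2 and 157 of 6378 oligodendrocyte-like nuclei. Eccentric MSN-like nuclei averaged 0.307 ± 0.155. Unnamed clusters held 45.0% of the summed value, and their number of nuclei differed by library. The start of Chrm2 is overlapped on the other strand by 9330158H04Rik, which averaged 1.52 in the cholinergic and 0.311 in the GABAergic class and resembled Chrm2 across classes with r = 0.971.

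Genes with a mean of at least 0.1 in some class were compared across the 17 classes. Those most like each member were found by the correlation of log2(mean + 0.01). For Slc5a7 these were Slc10a4 (r = 0.942) and Acly (r = 0.924), the enzyme that makes cytosolic acetyl-CoA. For Slc10a4, Ecel1 reached r = 0.974, a gene that also served as a marker of the class, and for Ache, Gdnf reached 0.908. Chrm1 was most like Grin2a (r = 0.957), an NMDA receptor subunit. Chrm3 was most like Gm47405 (r = 0.918), a transcript within its own intron on the same strand. Chrm4 was most like Gm15592 (r = 0.906), then Slc35d3 (r = 0.895) and Isl1 (r = 0.878). Isl1 also served as a marker of the D1 and cholinergic classes. Most of the others were predicted transcripts, such as Gm29374 for Slc18a3 (r = 0.989) and Rtbdn, a named gene, for Chrm2 (r = 0.983).

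The genotypes were compared in all nuclei and in 14 classes with limma, on log2(mean + 0.01) of each library, with p-values adjusted by the Benjamini-Hochberg method over all genes of the population. A gene was tested where its mean was at least 0.02 and its summed value averaged at least 30 per library, which 45 member tests passed. Slc18a3 passed nowhere, Slc10a4 and Chrm4 in 1 population each. None of the 45 was called at an adjusted p under 0.05, and the lowest adjusted p was 0.360. At an unadjusted p under 0.05 there were 6, spread over all nuclei (1 of 6 members), D1 (2 of 6), D2 (2 of 5) and the cholinergic class (1 of 5). The background was low too: 0% of 14400 genes were called in all nuclei, 0.0224% of 13422 in D1, 0.00785% of 12746 in D2 and 0% of 1203 in cholinergic interneuron-like nuclei, and 9.94%, 9.95%, 8.66% and 4.66% had an unadjusted p under 0.05. In GABAergic interneuron-like and glutamatergic neuron-like nuclei 0% were called, 6.52% and 5.39% had an unadjusted p under 0.05, and no member did. Over all genes tested the median log2 change, heterozygous minus wild type, was 0.07 in all nuclei, 0.06 in D1, 0.04 in D2 and 0.02 in the cholinergic class. Celsr3 itself was not called by this test wherever it passed the filter. Its log2 change was -0.76 in D1 (limma, adjusted p = 0.124), at 56.5% of the wild-type mean. It was -0.63 in D2 (adjusted p = 0.302) and -0.46 over all nuclei (adjusted p = 0.459). The glutamatergic class gave -0.82 (adjusted p = 0.640), and the GABAergic class -0.18 (adjusted p = 0.971) with overlapping libraries. A missed threshold in this test therefore does not show equal levels.

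In cholinergic interneuron-like nuclei, Chrm2 stood at 11.8, 9.03 and 10.1 in wild-type replicates 1 to 3 and at 6.15, 7.66 and 8.89 in the heterozygous ones. Every heterozygous library lay below every wild-type one, an order that 3.57% of genes tested in this class share, and the log2 change was -0.46 ± 0.17 (SE; limma, unadjusted p = 0.0290, adjusted p = 0.948). The median number of genes per nucleus moved with it in the other direction, from 3733 to 3768.5 in wild-type and from 3811 to 3957.5 in heterozygous libraries. With 15 nuclei per library matched on that number, the change of Chrm2 was -0.24 (adjusted p = 0.978). Without heterozygous replicate 1 it was -0.31, and without wild-type replicate 1 it was -0.35. These libraries were also the lowest and the highest for the summed eccentric MSN markers (2.41 and 11.4), a list that overlapped between genotypes, and its part in the Chrm2 values was not tested. The antisense 9330158H04Rik ranged from 1.36 to 2.00 in wild-type and from 0.852 to 1.58 in heterozygous libraries, which overlap.

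The terminal genes overlapped between genotypes in the same nuclei. Chat stood at 5.88, 4.26 and 4.89 in wild type and at 5.78, 5.76 and 5.58 in heterozygous replicates 1 to 3, a log2 change of 0.20 ± 0.15 (limma, adjusted p = 0.948). That change was 0.32 without wild-type replicate 1 and 0.09 without wild-type replicate 2. Slc5a7 stood at 10.1, 6.59 and 8.71 and at 7.85, 7.58 and 8.25, a change of -0.08 ± 0.17. Slc18a3, below the filter and not tested, stood at 0.708, 0.641 and 0.607 and at 0.519, 0.605 and 0.639, with overlap. The change was -0.04 ± 0.18 for Slc10a4 and -0.07 ± 0.19 for Ache. Each library held 24 to 39 of these nuclei, and a missed threshold does not show equal levels. Across the 6 libraries, Chat was found in 94.7% to 100% of these nuclei, Slc5a7 in 97.4% to 100% and Chrm2 in 92.1% to 100%.

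**Figure D4:**
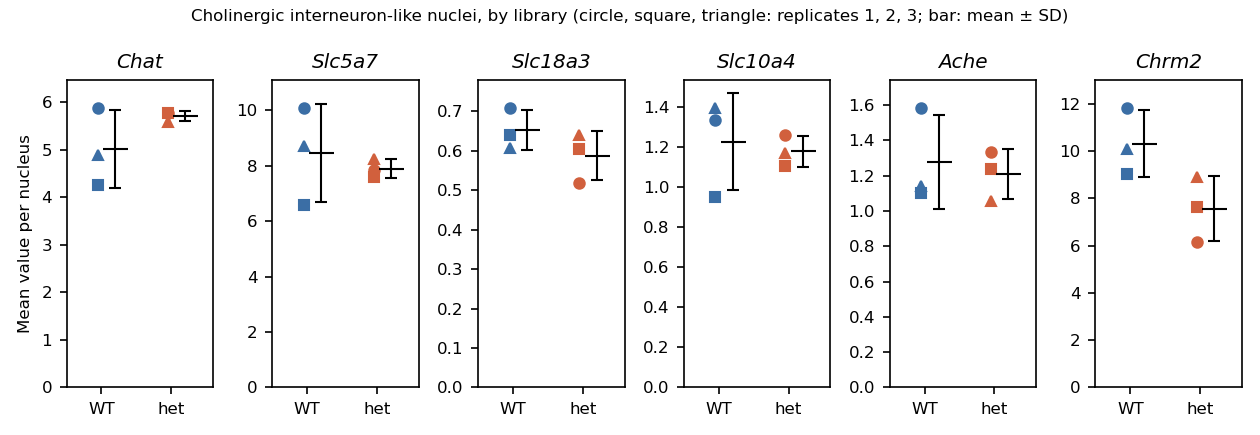
Members in cholinergic interneuron-like nuclei, 1 point per library, with the mean ± SD of 3 libraries beside each group. The y axis is the mean value per nucleus from 0, on a separate scale for each gene, WT is wild type and het Celsr3 heterozygous. The groups overlap for Chat, Slc5a7, Slc18a3, Slc10a4 and Ache and do not overlap for Chrm2 (9.03 to 11.8 against 6.15 to 8.89).

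In D1 MSN-like nuclei Chrm3 was below wild type in every heterozygous library (values above), an order shared by 5.07% of genes tested there. Its level in D1 is low, at 0.169 against 3.50 in D2, and lies between 0.208 in microglia-like and 0.138 in astrocyte-like nuclei. Its log2 change was -0.41 ± 0.13 (limma, unadjusted p = 0.00976, adjusted p = 0.360). With limma's array weights, which give libraries unequal weight, the change was -0.52 with an adjusted p of 0.0332, the only setting tried that called a member. That setting called 3.61% of the genes tested in D1, 485 against 3 without the weights. The change was -0.27 with a pseudocount of 0.1 and -0.25 with nuclei matched on genes per nucleus. In D2 MSN-like nuclei, where the gene is abundant, the change was -0.28 ± 0.12 (unadjusted p = 0.0437, adjusted p = 0.567) and the libraries overlapped, since wild-type replicate 1 at 3.16 lay below heterozygous replicate 3 at 3.33. Without wild-type replicate 2 that change was -0.14, and without wild-type replicate 1 it was -0.41.

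Chrm1 lay the other way in both MSN classes. In D1 it stood at 0.434, 0.458 and 0.429 in wild type and at 0.470, 0.558 and 0.510 in heterozygous replicates 1 to 3, a log2 change of 0.21 ± 0.09 (limma, unadjusted p = 0.0385, adjusted p = 0.471). In D2 it stood at 0.419, 0.422 and 0.398 and at 0.459, 0.505 and 0.489, a change of 0.22 ± 0.08 (unadjusted p = 0.0214, adjusted p = 0.476). The groups did not overlap in either class, as for 11.6% of genes in D1 and 9.07% in D2 that were higher in every heterozygous library. D1 and D2 nuclei come from the same libraries, so these are not independent observations. In glutamatergic neuron-like nuclei the change of Chrm1 was 0.20 ± 0.12 (0.12 without heterozygous replicate 2) and the libraries overlapped. Its lowest value there over all settings tried was 0.09. Before doublets were left out, cluster 10, the largest of that class, held 130, 18 and 418 nuclei in wild type. In heterozygous replicates 1 to 3 it held 611, 119 and 5, and the part of this in the change was not tested.

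Chrm4 in D1 nuclei was higher in each heterozygous library (values above), as were 11.6% of genes tested there, with a log2 change of 0.23 ± 0.15 (limma, adjusted p = 0.628). It was 0.08 with a pseudocount of 0.1, 0.14 without wild-type replicate 1 and with array weights, 0.41 with matched nuclei and 0.48 with equal cluster weights. For Chrm2 in D2 nuclei the change was -0.78 ± 0.39 (adjusted p = 0.638), with wild-type replicate 1 at 0.152 and the other 5 libraries between 0.0236 and 0.0741. Without that library it was -0.36, and without heterozygous replicate 1 it was -0.44. For Chat it was -0.11 ± 0.27 in D1 and 0.02 ± 0.22 in D2. The change in D1 minus that in D2 was tested for 5 members, and none was called (limma, lowest adjusted p 0.775, for Chrm2, with a difference of 0.77 ± 0.24 and an unadjusted p of 0.00481), beside 0.0236% of 12693 genes called and 5.11% with an unadjusted p under 0.05. That difference for Chrm2 was 0.44 without wild-type replicate 1 and 0.51 without heterozygous replicate 1, and up to 0.97 with another library left out. Over all settings tried, its lowest value was 0.34.

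Over all nuclei Chrm2 stood at 0.298, 0.301 and 0.376 in wild type and at 0.372, 0.478 and 0.592 in heterozygous replicates 1 to 3, a log2 change of 0.53 ± 0.17 (limma, unadjusted p = 0.0181, adjusted p = 0.465). The groups overlapped, since wild-type replicate 3 lay above heterozygous replicate 1. Means over all nuclei mix the level within a class with the number of nuclei of each class. Of the summed Chrm2 value, 43.5% lay in 7 unnamed clusters with 4124 nuclei. These were picked for a mean Chrm2 above 1, so their share of the value is set by that choice, and they made up 8.05%, 3.77% and 6.84% of wild-type and 1.94%, 16.2% and 13.7% of heterozygous libraries. Matching the libraries on genes per nucleus gave a log2 change of 0.24. With every cluster of at least 10 nuclei per library weighted equally, it was 0.05.

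In GABAergic interneuron-like nuclei the log2 changes of the 4 members tested ran from -0.07 to 0.30, and in glutamatergic neuron-like nuclei from 0.20 to 0.46, all with overlapping libraries. With 1 library left out, Ache in the glutamatergic class ran from 0.29 to 0.74, the higher without heterozygous replicate 1, and Chrm2 from 0.11 without wild-type replicate 1 to 0.48 without wild-type replicate 2. In the GABAergic class Chrm2 ran from 0.03 without heterozygous replicate 2 to 0.43 without wild-type replicate 2, and Ache was 0.19 without heterozygous replicate 2. Over all settings tried, the lowest change of Ache in the GABAergic class was 0.07. The 9 other classes gave 15 tests, with changes from -0.55 to 0.86 and adjusted p-values of 0.849 or more. The lowest change was that of Chrm1 in microglia-like nuclei. It stood at 0.111, 0.147 and 0.0943 in wild type and at 0.0876, 0.0588 and 0.0831 in heterozygous replicates 1 to 3. The groups did not overlap, as for 5.11% of genes tested there in that direction. The highest change was that of Chrm3 in OPC-like nuclei, where heterozygous replicate 1, with 29 nuclei, stood at 1.07 and the other 5 libraries between 0.0938 and 0.378.

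**Figure D5:**
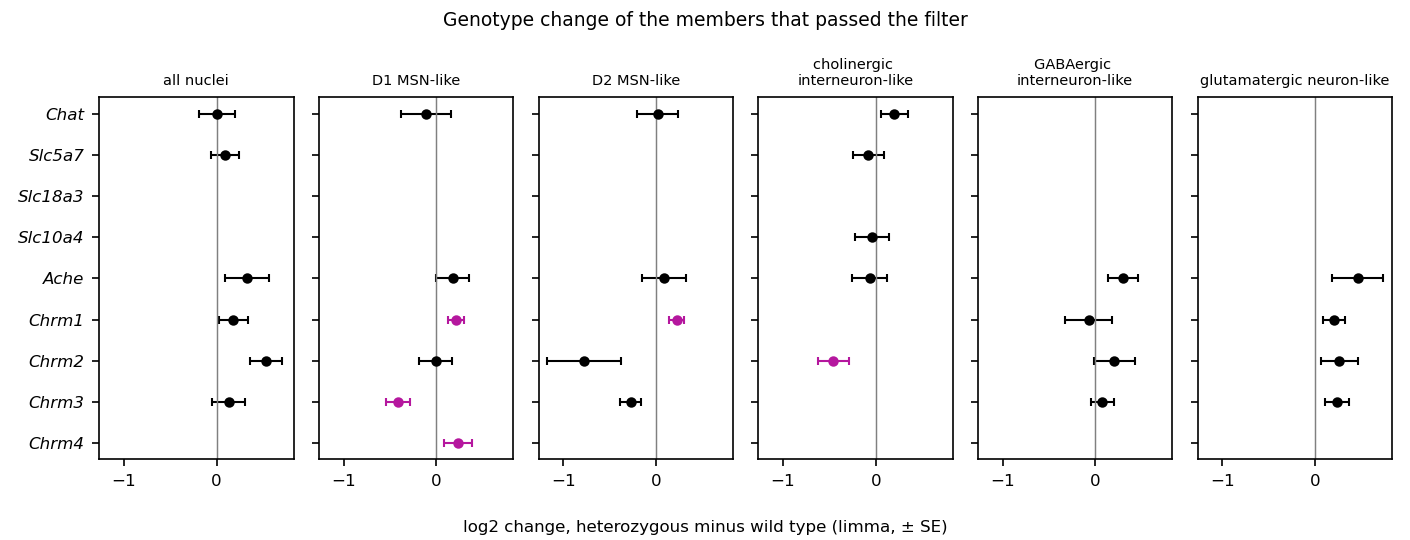
Log2 change, heterozygous minus wild type, of every member that passed the filter in 6 populations. Points are limma estimates, bars ± 1 SE, the vertical line marks 0, and magenta marks members whose 3 heterozygous libraries all lie on one side of the 3 wild-type libraries. The 5 magenta points are Chrm1, Chrm3 and Chrm4 in D1, Chrm1 in D2 and Chrm2 in cholinergic interneuron-like nuclei, and none was called.

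The wider pathway was read from 3 lists. Of 15 nicotinic receptor subunit genes in the table, 4 were tested in D1 and 3 in D2 nuclei, with 0 called and median log2 changes of -0.06 in both. Of 18 genes of acetylcholine and choline handling, 16 and 14 were tested, with 0 called and medians of 0.07 and 0.11. The list of 18 muscarinic coupling partners held G proteins, phospholipases, Adcy5, Rgs4, Rgs8, M-current and inwardly rectifying potassium channels, and the receptor gene Chrm5. Of these, 17 were tested in each class, with 0 called and medians of 0.13 and 0.08. Chrm5 was not among the 17, and its highest class mean was 0.00245. At an unadjusted p under 0.05 there were 8 of 37 list genes in D1, 4 of 34 in D2, 1 of 38 in all nuclei and 0 of 9 in the cholinergic class. Of all genes tested, 9.95%, 8.66%, 9.94% and 4.66% met it in these populations.

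Bche, which encodes butyrylcholinesterase, another enzyme that breaks down acetylcholine, was lower in every heterozygous library of both MSN classes, as were 5.07% of genes in D1 and 5.57% in D2. In D1 it stood at 0.105, 0.104 and 0.113 in wild type and at 0.0702, 0.0739 and 0.0674 in heterozygous replicates 1 to 3, a log2 change of -0.55 ± 0.12 (limma, unadjusted p = 0.00110, adjusted p = 0.217). In D2 the change was -0.39 ± 0.13 (adjusted p = 0.442). For Prima1, which anchors acetylcholinesterase to the membrane, the change was 0.29 ± 0.10 in D1 (adjusted p = 0.384), and for Ly6h, a nicotinic receptor modulator, 0.25 ± 0.09 (adjusted p = 0.407). In D2 Kcnq5, a channel of the M-current that muscarinic receptors close, stood at 16.1, 15.5 and 15.5 in wild type and at 18.5, 21.02 and 18.1 in heterozygous replicates, a change of 0.29 ± 0.07 (adjusted p = 0.302), and for Pcyt1a, of phosphatidylcholine synthesis, it was 0.33 ± 0.11 (adjusted p = 0.451). In the cholinergic class the smallest p-values belonged to Kcnq3 (0.30 ± 0.15), Prima1 (0.27 ± 0.14) and Gnao1 (0.22 ± 0.14), each with an adjusted p of 0.948. Over all nuclei they belonged to Slc44a2 (0.19 ± 0.08), Ric3 (0.15 ± 0.07) and Ly6h (0.39 ± 0.17), with adjusted p-values of at most 0.503.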

How the data were processed

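Nuclei of 6 striatal libraries were sequenced with 10x 3′ chemistry. Cell Ranger, Seurat 4.1 and the mm10 (GRCm38) build are named per the submitters' processing notes, and the annotation, the strand setting and the aligner options are not given in the sources used here. The authors deposited whole numbers per gene and nucleus in 1 table, treated here as a score: totals per nucleus run from 4523 to 10638 with a coefficient of variation of 10.7%, so they are not raw counts and the original depth is unknown. No count model or counting interval was therefore used.

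The members and lists were chosen with earlier results of these data known. Clusters were made with scanpy 1.11.5 (2000 variable genes without the members, 30 principal components, 15 neighbours, resolution 1.0, igraph 0.11.9, leidenalg 0.10.2, Python 3.11.15). Doublets were scored per library with an expected rate of 0.06. The automatic threshold marked 0.127% to 0.811% per library, so nuclei with a score above 0.25 and 6 clusters with over 40% such nuclei were treated as doublets, and 812 nuclei (1.66%) were left out. A cluster was named where at least 3 markers had a mean above 0.1 and a fold above 2, with 40% of the markers or 1 in the top 10 genes, and stayed unnamed where a rival class had more genes in the top 10, or 50% of its markers and as many there.

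Library means were compared with limma 3.58.1 in R 4.3.3 on log2(mean + 0.01), a scale that understates changes of low genes, for genes with a mean of at least 0.02 and a summed value averaging at least 30 per library, in classes where no library had fewer than 20 nuclei. Genes were named by rule: every member that passed, the 3 genes most like each member, and from each population the 3 list genes with the smallest p. Some genes this rule names are not reported here. Other pseudocounts, filter, scaling, weights, doublets, clustering, depth matching, a replicate block and leaving out each library were tried, and equal cluster weights were added after seeing the data. Replicate numbers were checked for pairing.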

Additional observations from a re-analysis of the deposited data

How the results depend on the processing

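No count of called members differed from 0 under any setting, except 1 in D1 MSN-like nuclei with array weights (Chrm3). Chrm1, Chrm3 and Chrm4 in D1, Chrm1, Chrm2 and Chrm3 in D2 and Chrm2 in cholinergic interneuron-like nuclei kept their direction under every setting run, with log2 changes of 0.13 to 0.27, -0.53 to -0.25 and 0.08 to 0.48 in D1, 0.18 to 0.27, -1.10 to -0.35 and -0.41 to -0.14 in D2, and -0.58 to -0.24. The same held for Ache, Chrm1 and Chrm2 in all nuclei, Ache in D1 and Chat in the cholinergic class. It also held for Ache and Chrm2 in the GABAergic class and for all 4 members tested in the glutamatergic class. The settings reuse the same libraries, so a kept direction does not set a member apart. Over all genes, leaving out wild-type replicate 1 raised the calls from 3 to 215 in D1 and from 1 to 119 in D2, and array weights gave 485 in D1. Under size-factor scaling the percentage that was higher, of genes whose unadjusted p was below 0.05, went from 63.3% to 27.2% in all nuclei, from 57.3% to 33.7% in D1 and from 47.9% to 32.9% in D2. The cause was not tested. The unknown depth limits what can be said of Slc18a3 and Chrm4.

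The difference in the share of cholinergic interneuron-like nuclei, heterozygous minus wild type, is given in percentage points with 1 library left out at a time and ran from -0.0183 to 0.0753. Some log2 changes reversed. For Chat in all nuclei the values were -0.00269 with a pseudocount of 0.1, -0.0595 with size factors and -0.18 with nuclei matched on genes per nucleus. Matching also gave -0.16 for Slc5a7 and -0.00746 for Chrm3 in all nuclei, 0.0148 for Chrm2 in D1, -0.0464 for Ache in D2 and 0.0753 for Slc5a7 in the cholinergic class. Equal cluster weights gave -0.0198 for Slc5a7 in all nuclei and 0.0576 for Chrm2 in D1. Array weights gave -0.14 for Chrm3 in all nuclei and 0.15 for Chat in D1. For Chrm2 in D1, keeping doublets gave 0.00234 and members among the variable genes 0.0254, a setting that gave 0.16 for Ache in the cholinergic class. For Chat in D2 the pseudocount of 0.1 gave -0.00314 and size factors -0.0148. With 1 library left out, reversals lay within -0.20 to 0.13 (Chat), -0.0140 to 0.23 (Slc5a7) and -0.0528 to 0.25 (Chrm3) in all nuclei, -0.30 to 0.23 (Chat) and -0.14 to 0.0760 (Chrm2) in D1, and -0.27 to 0.26 (Chat) and -0.0784 to 0.32 (Ache) in D2. In the cholinergic class they lay within -0.25 to 0.0579 (Slc5a7), -0.21 to 0.0629 (Slc10a4) and -0.16 to 0.10 (Ache), in the GABAergic class within -0.28 to 0.18 (Chrm1) and -0.0176 to 0.15 (Chrm3), and for D1 minus D2 within -0.12 to 0.26 (Ache) and -0.0435 to 0.0109 (Chrm1).

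Same-numbered libraries did not deviate together throughout (r = -0.0354, 0.146 and -0.0716 for replicates 1, 2 and 3 over all nuclei; -0.385, -0.382 and -0.0600 in the cholinergic class; 0.269, 0.0162 and 0.181 in D1; 0.259, 0.0426 and 0.177 in D2), and not every value was above 0.1 in any of these, so the numbers were not taken as a pairing. With the replicate block 0 members were called in any of the 6 populations, and over all genes 5 were called in D2 against 1 without it. Of 6 samples, 2 were closest to their own number over all nuclei, 3 in D1, 4 in D2 and 0 in the cholinergic class.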

Other observations

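Several genes of the same pathway that are not members were also highest in the cholinergic class. Acly, which supplies cytosolic acetyl-CoA, averaged 3.83 in cholinergic interneuron-like nuclei and 0.351 in the next class, and Prima1, the membrane anchor of acetylcholinesterase, 4.50 and 0.723. Plcb4, a phospholipase downstream of Gq, averaged 4.53 there but 0.0723 in D1 and 0.0804 in D2 MSN-like nuclei, whereas Plcb1 averaged 0.979 there and 17.1 and 18.9 in D1 and D2. Chkb, Pcyt1a and Pemt, of phosphatidylcholine synthesis, had their highest level there too, at 0.245, 0.437 and 0.111. List genes were counted where their mean was above 0.1 in some class. Of these, 5 of 17 handling genes, 1 of 17 coupling partners and 1 of 4 nicotinic subunits were highest in the cholinergic class. The share of all genes that were highest in this class was not counted, so these counts have no background. Its median of 3814 genes per nucleus was the highest of any class. Chrnb3 and Chrng, below 0.1 in every class, also had their highest mean there, at 0.0160 and 0.0242. The Kcnq5 level was 22.1 in D1 and 17.5 in D2 against 0.569 in the cholinergic class, and that of Adcy5, the striatal adenylyl cyclase, 5.00 and 5.17 against 0.260.

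Among nicotinic subunits, Chrna7 was highest in D1 (0.790) and D2 (0.768) MSN-like nuclei, against 0.248 in the cholinergic class and 0.0254 in oligodendrocyte-like nuclei. Slc44a1, a choline transporter of low affinity, was highest in committed oligodendrocyte precursor-like nuclei, which ranked second for Slc5a7, at 8.92 against 3.06 in oligodendrocyte-like nuclei.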
